A study of Caenorhabditis elegans with 2 samples.

Results

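The regions described here are strong candidate sites of the Hox protein LIN-39 that lie on the autosomes of Caenorhabditis elegans, between protein-coding genes and away from the annotated starts of those genes. They were selected from the authors' candidate list built on both replicates together, which holds 30000 regions on the ce11 genome build. A region was taken when it was among the 2000 with the highest deposited signal value, was not on X, and had its summit inside no protein-coding gene and outside the stretch from 1000 bp upstream to 200 bp downstream of any protein-coding transcript's 5′ end. Of the 2000 strongest regions 1537 were autosomal, and 371 of these met the rule. Signal rank, the exclusion of X and the position relative to coding genes and their starts therefore chose the regions and are given below as a description, without a test. Which autosome a region was on, where along it, and the orientation of its neighbours were not used.

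Chromatin immunoprecipitation followed by sequencing (ChIP-seq) recovers DNA bound by a tagged protein and reads where it came from. The study has 1 group of 2 biological replicates of whole second-stage (L2) larvae. All animals were of strain OP18, which carries the transgene wgIs18 for eGFP-tagged lin-39 in the background of the mutation unc-119(ed3) on III, and the sexes were pooled. All cells of the animal were thus in the chromatin, the tagged protein came from an inserted transgene in 1 strain, and the age of the larvae is given as unknown. No untreated or control library was analysed here.

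Hox proteins set the identity of body regions along the head-to-tail axis, and LIN-39 is the Hox protein of the worm's mid-body, known for its role in the cells that form the vulva, in neurons of the ventral nerve cord and in neuroblasts that migrate. Hox proteins have short, common recognition sequences and are known to bind DNA together with Pbx-class partners (CEH-20 in the worm) and Meis-class partners (UNC-62). Most worm genes have compact upstream sequence, and sequence far from a gene's start can hold enhancers, non-coding genes or unannotated starts, since trans-splicing of leaders hides many true transcription starts.

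Windows of 201 bases centred on the summit are shown for the regions that carry the 2 words on which the results turn, as read from the RefSeq copy of the WBcel235 assembly (the sequence of ce11), along the forward strand. Capitals mark 3 words, each on either strand. They are the GA repeat word GAGAGA, which reads TCTCTC on the opposite strand; the Hox with Pbx consensus TGATNNAT, in which N is any base and which reads ATNNATCA on the opposite strand; and AGACGCAG, which reads CTGCGTCT on the opposite strand and was picked after the values were seen. The region between rpy-1, a gene for a rapsyn-type protein that clusters acetylcholine receptors, and the cuticle collagen gene dpy-10 carries all 3 within 201 bases. The region near hif-1, the hypoxia-inducible factor gene, carries the repeat word 4 times, and that near sdz-38 shows a pair of uninterrupted runs longer than the word itself.
rpy-1 region, II:6707601-6707801: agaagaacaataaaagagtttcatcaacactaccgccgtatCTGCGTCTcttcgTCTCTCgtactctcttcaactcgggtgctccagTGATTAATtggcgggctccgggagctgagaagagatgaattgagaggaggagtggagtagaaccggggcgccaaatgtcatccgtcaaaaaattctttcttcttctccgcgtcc
hif-1 region, V:20778306-20778506: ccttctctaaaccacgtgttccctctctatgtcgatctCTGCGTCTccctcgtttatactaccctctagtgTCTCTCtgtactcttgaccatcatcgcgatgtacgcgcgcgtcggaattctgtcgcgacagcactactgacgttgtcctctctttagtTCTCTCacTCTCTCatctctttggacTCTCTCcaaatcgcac
sdz-38 region, II:9984861-9985061: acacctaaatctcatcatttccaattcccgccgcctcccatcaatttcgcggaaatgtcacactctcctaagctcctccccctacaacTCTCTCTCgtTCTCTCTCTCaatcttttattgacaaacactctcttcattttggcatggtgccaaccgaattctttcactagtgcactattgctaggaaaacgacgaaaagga

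Other strong regions had the Hox with Pbx word without the repeat word, as beside cutl-1, a cuticlin-like gene, and T23G4.127. The region in front of din-1, which encodes a partner of the nuclear receptor DAF-12, had both.
cutl-1 region, V:13402609-13402809: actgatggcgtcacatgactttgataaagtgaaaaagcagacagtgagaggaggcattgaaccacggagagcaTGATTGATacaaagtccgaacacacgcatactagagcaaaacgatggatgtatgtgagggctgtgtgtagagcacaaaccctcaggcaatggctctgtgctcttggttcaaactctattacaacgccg
T23G4.127 region, IV:13694710-13694910: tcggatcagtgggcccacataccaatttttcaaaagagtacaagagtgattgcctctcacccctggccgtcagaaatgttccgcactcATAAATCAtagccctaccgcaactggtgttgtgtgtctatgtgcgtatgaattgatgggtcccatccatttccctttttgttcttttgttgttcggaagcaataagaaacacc
din-1 region, II:11635763-11635963: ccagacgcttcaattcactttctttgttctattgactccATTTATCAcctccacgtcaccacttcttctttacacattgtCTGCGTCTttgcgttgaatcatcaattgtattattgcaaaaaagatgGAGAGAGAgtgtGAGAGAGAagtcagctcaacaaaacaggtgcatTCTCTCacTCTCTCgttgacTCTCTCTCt

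Regions next to Hox genes are shown for their place in the genome. The first lies between ceh-13, the Hox gene of the labial class, and lgc-12, and the other in front of mab-5, the Hox gene that acts just behind the domain of lin-39.
lgc-12 and ceh-13 region, III:7559992-7560192: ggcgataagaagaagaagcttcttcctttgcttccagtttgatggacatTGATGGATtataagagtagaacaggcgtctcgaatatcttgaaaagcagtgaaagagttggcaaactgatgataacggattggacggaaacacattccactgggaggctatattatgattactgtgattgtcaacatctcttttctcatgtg
mab-5 region, III:7789224-7789424: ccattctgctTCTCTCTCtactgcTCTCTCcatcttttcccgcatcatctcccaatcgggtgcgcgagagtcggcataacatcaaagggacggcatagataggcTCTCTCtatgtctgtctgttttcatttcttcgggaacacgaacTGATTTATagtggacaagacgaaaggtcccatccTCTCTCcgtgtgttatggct

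The strongest of the 371 had none of the 10 words searched. It lies beside ins-13, an insulin-like peptide gene, and within 500 bp of sls-2.2, which the annotation lists as an snRNA and which belongs to the family of SL2 spliced leader RNA genes. Of its 32-base words 31.8% occur elsewhere in the genome, so that some reads there may have more than one possible origin.
ins-13 region, II:5543465-5543665: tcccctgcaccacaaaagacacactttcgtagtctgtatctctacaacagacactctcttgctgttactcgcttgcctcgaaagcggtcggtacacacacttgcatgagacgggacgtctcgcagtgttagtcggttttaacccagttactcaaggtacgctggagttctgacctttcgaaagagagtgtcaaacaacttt

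The deposited signal ran from 28.8 to 99.8 over the 371 regions, with a median of 33.1 and quartiles of 30.5 and 38.2. Signal fell steeply over the first ranks and then flattened. The weakest region taken, at I:12438138-12438447, had rank 1998 and a signal of 28.8464, and the first one outside, at IV:6732420-6732729, had a signal of 28.8409. The limit is a cut through a continuous series, and it took 7% of the 5300 autosomal distal intergenic candidates, where it took 6.67% of all 30000. Only the regions down to the authors' own threshold were on their optimal list, the list of peaks they derived by comparing replicates: 65 of the 371 (17.5%), against 15.6% of all 2000.

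**Figure D1:**
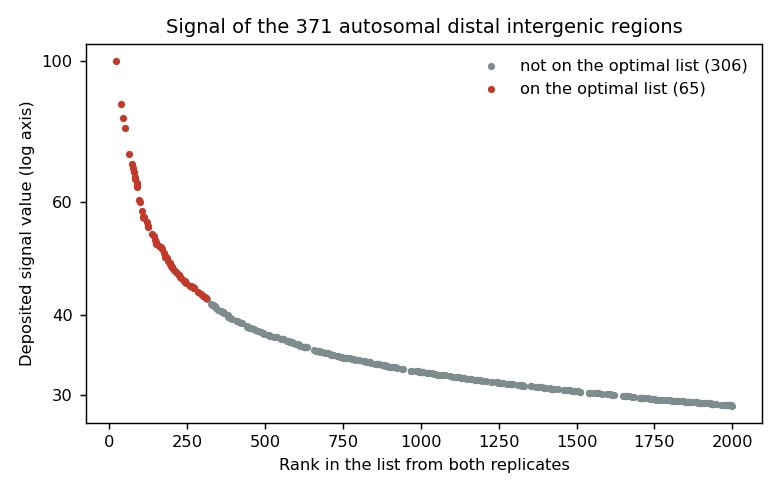
Deposited signal value (log axis) of the 371 autosomal distal intergenic regions against their rank in the list from both replicates, 1 point per region. The values run from 99.8 to 28.8, and the 65 regions on the authors' optimal list are the strongest ones.

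The replicates gave many of these regions very different ranks. In each replicate's own list of 30000, the region that overlapped most was taken as the match; 339 of the 371 were found in both lists, 11 were missing from replicate 1 and 21 from replicate 2. The median rank was 1289.5 in replicate 1 and 1989.5 in replicate 2. Among the 2000 strongest of both replicates were 89 of the regions (23.99%), while 122 were so in replicate 1 alone, 86 in replicate 2 alone and 74 in neither. The same count was 130 of 509 (25.5%) for promoter-proximal autosomal regions and 54 of 373 (14.5%) for intronic ones outside promoters. These ranks come from the same reads that chose the regions, so they are a description, and no level was compared between lists.

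Some of the strongest regions ranked high in both replicates. The ins-13 region had rank 29 in replicate 1 and 28 in replicate 2, and the rpy-1 region had ranks 43 and 40. Others rested on 1 library. The region beside sfrp-1, which encodes a secreted Frizzled-related protein, had rank 33 in replicate 1 and 6156 in replicate 2. In front of egl-9, the gene of the prolyl hydroxylase that marks HIF-1 for degradation, the ranks were 51 and 5932, and in front of mau-2, a cohesin loader gene, they were 65 and 7109. The opposite held in front of mef-2, a MADS-box factor gene, with rank 4148 in replicate 1 and 68 in replicate 2. The sfrp-1, egl-9, mau-2 and mef-2 regions are all on the optimal list. A place on that list therefore does not mean similar ranks in both replicates. A weak region of the ins-13 group (rank 1993) overlaps the strong one and was matched to ranks 60 and 28; the match in replicate 2 is the same region as that of the strong one.

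**Figure D2:**
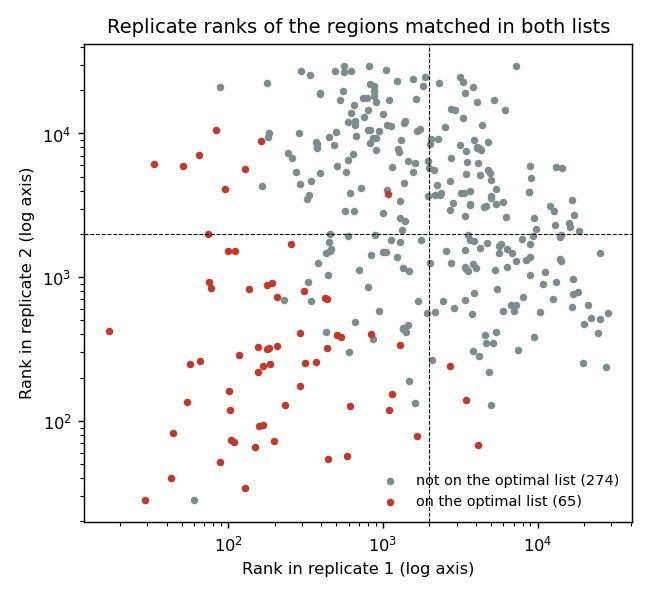
Rank in replicate 1 against rank in replicate 2 (both log axes) for the 339 regions matched in both lists, 1 point per region, with red for the 65 on the optimal list and dashed lines at rank 2000. The 89 regions in the lower left field are among the 2000 strongest of both replicates, and many others are high in 1 replicate only.

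The 20 strongest regions lay near genes of many kinds, and most of them on the upstream side of the nearest 5′ end. After ins-13 and rpy-1 came a region 1378 bp upstream of atgp-2 (II:14645306-14645615, signal 81.3, replicate ranks 44 and 82), whose other neighbour is unc-52, the perlecan gene of muscle attachment. The next lay 2282 bp upstream of tln-1, the talin gene (I:1719153-1719462, signal 78.5, ranks 17 and 422). The hif-1 region (signal 71.4) lay just over 2000 bp upstream, with rank 34 in replicate 2 and a rank within the first 150 in replicate 1.

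Further down were regions upstream of casc-3, of chd-7, a chromatin remodeller gene, of gpb-1, the G protein beta subunit gene, of sdz-38, and of the genes pacs-1, sup-26, which encodes an RNA-binding protein, F28F9.3, F32A7.8 and nhl-3. Others were upstream of egl-3, a proprotein convertase gene for neuropeptides, of fmi-1, the Flamingo cadherin gene, and of mig-1, a Frizzled gene of the Wnt pathway. The signals of these 12 regions lay between 56.9 and 68.9. Like the ins-13 region, those nearest cutl-1, T23G4.127 and sfrp-1 lay on the downstream side, beyond the ends of the genes, with signals of 65.5, 65.4 and 64.2.

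Over all 371, the nearest 5′ end of a coding transcript was at a median distance of 2559 bp, with quartiles of 1618 and 4032 bp. The median was 2504 bp for the 4929 autosomal distal intergenic candidates below rank 2000, which are called the weaker regions from here on. The shortest distance was 424 bp, on the downstream side, where the rule set a limit of 200 bp, and the longest was 14876 bp, beside Y7A9D.1 on IV. On the upstream side of that 5′ end were 94 regions at 1000 to 2000 bp, 123 at 2000 to 5000 bp and 40 farther away, and 114 were on the downstream side. In all, 62 regions had no coding 5′ end within 5000 bp.

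Between which kinds of neighbours the regions lay was next compared with the weaker ones. The flanking genes were divergent, with both starts facing the region, for 126 regions (34.0%, against 29.8% of the weaker ones; Fisher's exact test, adjusted p = 0.150). They were convergent for 41 (11.1% against 15.1%, adjusted p = 0.101 by the same exact test) and in tandem for 204 (54.99%, and 55.001% of the weaker ones). None of these differences passed the test. With the rank limit at 1000, convergent neighbours were 10.2 percentage points rarer than in regions below that rank and did pass (Fisher's exact test, adjusted p = 4.5e-05). They were also rarer by the same test in the strongest regions of each replicate taken alone, with a difference of -5.60 percentage points in replicate 1 (exact test, adjusted p = 0.0049) and -5.19 in replicate 2 (exact test, adjusted p = 0.0203). With only the strongest region of each group of neighbours, the difference was -4.79 (exact test, adjusted p = 0.0454).

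The GA repeat word was more frequent at these regions than in their flanks or at the weaker regions. GAGAGA stood within 100 bp of 110 of the 371 summits (29.6%, 95% Clopper-Pearson interval 25.05 to 34.58). It was found in 42 of the windows 1000 bp to the side of lower coordinates (11.3%; exact McNemar test, adjusted p = 4.9e-08 over 20 word and flank pairs) and in 50 of those on the other side (13.5%, adjusted p = 1.7e-06 by the same exact test). The flanks were set by distance alone, without the position rule. For the 94 regions 1000 to 2000 bp upstream of the nearest 5′ end, the flank on that side was centred within 1000 bp upstream of it. Of the weaker regions 680 had it (13.8%, interval 12.8 to 14.8), so the gap was 15.9 percentage points (Fisher's exact test, adjusted p = 4.0e-13). Over all 30000 candidates the share was 13.1%. The words searched, this one among them, were chosen with earlier results of these data known. The p-values for words here and below are therefore not independent of that choice. The strongest regions with the word were those of rpy-1, tln-1, hif-1, casc-3 and chd-7. The excess lay around the summit. In bins of 50 bp the word started in 13.2% of regions from 100 to 50 bp on the lower side and in 11.9% and 11.3% in the bins that touch the summit, and the share came down to 4.85% at 250 to 300 bp on the higher side.

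Regions of other position classes carried the word too, so it was not particular to the distal ones. Peaks of other factors were not available to set it against. It was found in 31.8% of promoter-proximal regions of the same ranks (interval 27.8 to 36.1; Fisher's exact test, adjusted p = 0.845) and in 25.2% of intronic ones (interval 20.9 to 29.9, adjusted p = 0.875 by the same exact test), and neither difference passed. The distal share was 2.18 percentage points below the promoter share and 4.45 above the intronic share. In the 2000 strongest regions of replicate 2 taken alone, the distal share was instead 6.12 percentage points above the promoter share, which did not pass (Fisher's exact test, adjusted p = 0.195), and 13.3 above the intronic share, which did (adjusted p = 0.00092 by the same exact test).

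The Hox with Pbx consensus was less sharply placed. TGATNNAT was within 100 bp of 85 summits (22.9%, interval 18.7 to 27.5), against 806 of the weaker regions (16.4%; Fisher's exact test, adjusted p = 0.0095) and 17% of all candidates. The strongest regions with it were those of rpy-1, cutl-1, T23G4.127, fmi-1 and mig-1. It did not pass against either flank, with 16.4% (exact McNemar test, adjusted p = 0.195) and 16.98% (exact test, adjusted p = 0.244). With flanks at 2000 bp it passed against both, at 9.16 percentage points above their mean (exact McNemar test, adjusted p = 0.0123 for the higher of the pair). Promoter-proximal regions had it at 16.3% (Fisher's exact test, adjusted p = 0.151) and intronic ones at 18.2% (Fisher's exact test, adjusted p = 0.875). In replicate 1 alone the gap to the promoter-proximal regions was 8.49 percentage points and passed (Fisher's exact test, adjusted p = 0.0136). In replicate 2 alone that gap was 2.68 percentage points and did not pass (Fisher's exact test, adjusted p = 0.689). The call against the weaker regions was lost when the word was sought within 50 bp or 150 bp, with a promoter window of 2000 bp, and in the 2000 strongest regions of replicate 2 taken alone, where the gap was 2.66 percentage points (Fisher's exact test, adjusted p = 0.394).

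**Figure D3:**
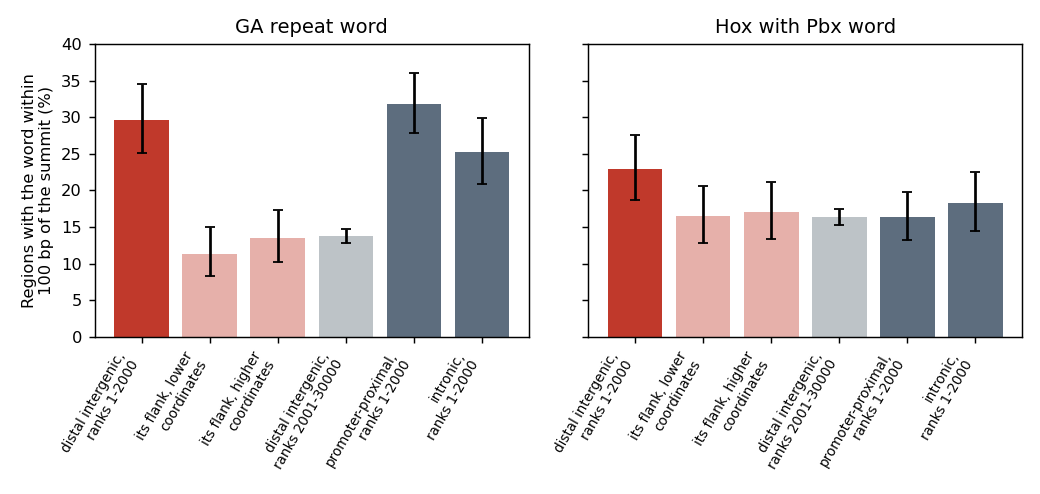
Share of regions with the GA repeat word (left) and the Hox with Pbx word (right) within 100 bp of the summit, in the 371 distal intergenic regions, their flanks at 1000 bp, the 4929 weaker regions (ranks below 2000), and 509 promoter-proximal and 373 intronic regions; bars are percentages and lines 95% Clopper-Pearson intervals. The left panel stands at 29.6% for the distal regions against 13.8% for the weaker ones, and at 31.8% for promoters.

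**Figure D4:**
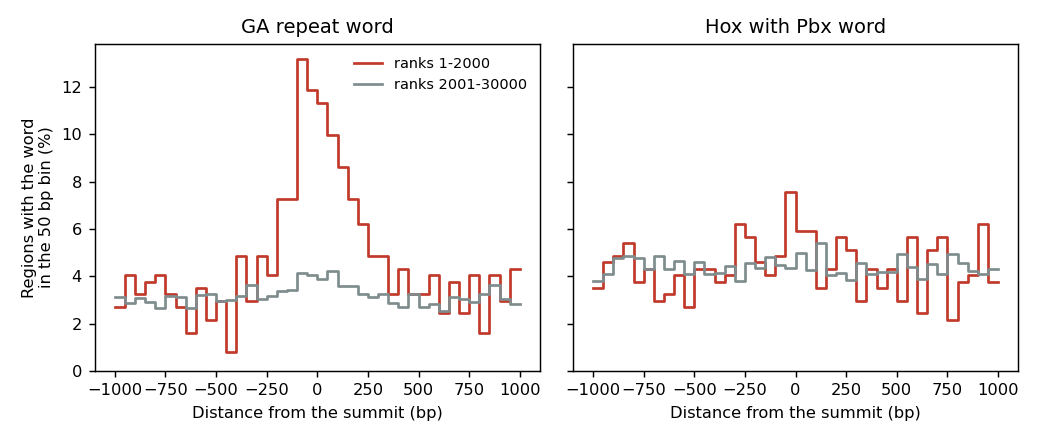
Share of the 371 regions (red) and of the 4929 weaker ones (grey) in which each word starts in a bin of 50 bp, against the distance from the summit in bp toward higher coordinates. The GA repeat word peaks around the summit at 13.2% in the red line, while the grey line reaches 4.22%; the Hox with Pbx word reaches 7.55% next to the summit, and 6.20% in bins as far as 900 bp away.

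Among the versions of TGATNNAT, TGATAAAT and TGATTGAT were the most frequent, each at 11 of the 371 regions. TGATTAAT followed with 9 and TGATGGAT, the version beside ceh-13, with 7; no region had TGATCTAT, which 38 weaker ones had. Both words together were found at 25 regions (6.74%), against 2.23% of the weaker ones. The repeat word alone was at 85 and the Hox with Pbx word alone at 60. Neither was at 201 regions (54.2%), the ins-13, atgp-2, sfrp-1, pacs-1 and sup-26 regions among them.

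Single long runs made up little of the repeat word's share. Uninterrupted runs of at least 12 bases were found at 12 regions (3.23%, weaker 0.791%). The word was counted 2 or more times without overlap at 56 regions (15.1%) and at 2.78% of the weaker ones. A region can be in both counts. Counted without overlap, the region in front of mef-2 had it 7 times, and those of din-1 and tol-1 5 times each.

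The other 8 words did not pass against the flanks or against any of the 3 sets. TGACAG, the Meis-type core, was at 10.2% of the regions and 7.47% of the weaker ones (Fisher's exact test, adjusted p = 0.225). The homeodomain core TAATTA was at 10.2% of both. The GATA-type word TGATAA was at 15.4% and 17.996% (Fisher's exact test, adjusted p = 0.463). CACGTG, the E-box, was at 4.31% and 3.21%. The word TGACTCA of AP-1-type factors, the tRNA promoter word written GTTCGANNC and the word written CTGTTTCA were each at less than 2.2% of the regions. GCGCAGGG, part of the recruitment sites of dosage compensation on X, was at 0 of the 371, which allows a share of up to 0.989%.

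The excess of the repeat word was carried by the stronger part of the regions. It was at 58 of 104 regions of ranks 1 to 500 (55.8%, interval 45.7 to 65.5) and at 31 of 94 of ranks 501 to 1000 (33.0%). At ranks 1001 to 1500 and 1501 to 2000 it was at 12.05% and 12.2%, which is no higher than the 18.1% at ranks from there to 4000. TGATNNAT had shares of 27.9%, 26.6%, 18.1% and 17.8% over the same 4 steps, then 16.6%. The GC content of the windows fell along the same steps, with medians of 43.3%, 39.6%, 35.8% and 35.6%. The difference from the weaker regions given above for all 371 thus came from the 198 regions of ranks 1 to 1000. Against all distal intergenic regions below rank 1000 these had 31.2 percentage points more GAGAGA (Fisher's exact test, adjusted p = 4.1e-24), whereas the 173 regions of ranks 1001 to 2000 had 12.1%.

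With the limit at rank 1000, and the weaker regions taken from there on, further words differed. TGATNNAT then exceeded the promoter-proximal regions of the same ranks by 11.4 percentage points (Fisher's exact test, adjusted p = 0.0141), and TGACAG, the Meis-type core, exceeded them by 8.37 percentage points with the same adjusted p by Fisher's exact test. TGACAG also exceeded the weaker regions, by 6.73 percentage points (Fisher's exact test, adjusted p = 0.0049), while TAATTA was lower than there by 5.34 (exact test, adjusted p = 0.0291). GAGAGA exceeded the intronic regions of those ranks by 15.5 percentage points (Fisher's exact test, adjusted p = 0.0206).

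**Figure D5:**
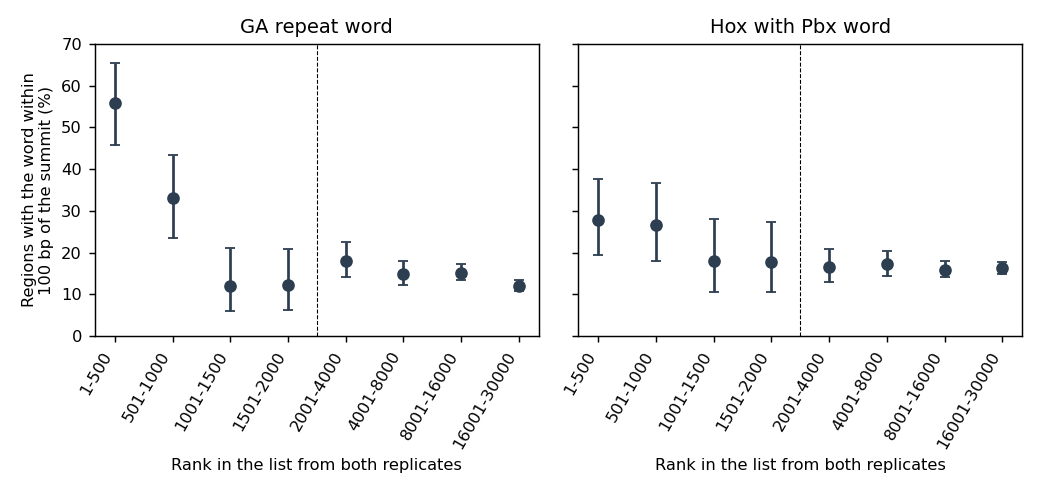
Share of autosomal distal intergenic regions with the GA repeat word (left) and the Hox with Pbx word (right) within 100 bp of the summit, by rank in the list from both replicates; points are percentages, lines 95% Clopper-Pearson intervals, and the dashed line marks rank 2000. The left panel falls from 55.8% to 12.2% before the dashed line is reached, and stays between 12.05% and 18.1% after it.

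The repeat word also followed the agreement between replicates. Of the 89 regions among the 2000 strongest of both replicates, 49 (55.1%) had GAGAGA and 28 (31.5%) had TGATNNAT. Of the 74 that were so in neither, 8 (10.8%) had GAGAGA and 13 (17.6%) had TGATNNAT. The regions strong in 1 replicate alone stood between, with GAGAGA at 24.6% for replicate 1 and 26.7% for replicate 2. TGATNNAT was at 23.8% of those strong in replicate 1 alone and at 17.4% of those strong in replicate 2 alone, which is about the share of the regions strong in neither. Rank moves with these groups, at medians of 241 and 1575 for the first and the last, so its part in the gap was not tested. GAGAGA was also at 35.4% of the 257 regions on the upstream side of the nearest 5′ end and at 16.7% of the 114 on the downstream side, whose median ranks were 840 and 1247.5.

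The regions were richer in G and C than weaker ones, and largely unique in sequence. Their windows had a median GC content of 38.8% (quartiles 34.3 and 43.8), against 34.3% in the weaker regions, 40.8% at promoters and 38.8% in introns. More than 50% of the window was masked as repeat or low complexity in 33 regions (8.89%) and in 21.4% of the weaker ones. No region had more than 50% of its 32-base words elsewhere in the genome, against 19 weaker ones (0.385%; Fisher's exact test, adjusted p = 0.639). Among windows of 35% to 45% GC, a limit added after the data were seen, GAGAGA was at 53 of 181 regions (29.3%) and 19.1% of the weaker ones (Fisher's exact test, adjusted p = 0.0176). In the same windows TGATNNAT was at 24.3% and 16.04%.

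The name "intergenic" holds here for protein-coding genes alone. The summit lay inside a non-coding gene or pseudogene in 55 regions (14.8%), nearly the share of the weaker ones (14.7%), but the kinds of gene differed. Genes of the annotation's class ncRNA held 28 summits (7.55%, weaker 2.13%) and pseudogenes held 21 (5.66%, weaker 11.4%). The rest were in 4 lincRNAs and 1 each of a snoRNA, a miRNA and a piRNA gene, with 1 summit counted under 2 classes.

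Within 500 bp of the summit, an ncRNA gene was found for 73 regions (19.7%, interval 15.8 to 24.1) and for 9.96% of the weaker ones (Fisher's exact test, adjusted p = 1.0e-06 over 10 classes). The strongest were the regions of ins-13 (C17C3.23), rpy-1 (T14B4.17 and T14B4.18), casc-3 (W08E3.5), gpb-1 (F44E5.14) and pacs-1 (T18H9.10). Among windows of 35% to 45% GC, a limit added after the data were seen, the shares were 14.9% and 12.4% and the difference did not pass (Fisher's exact test, adjusted p = 1). A pseudogene was found for 29 regions (7.82%) and 16.1% of the weaker ones (Fisher's exact test, adjusted p = 3.5e-05), but with replicate 2 alone the gap did not pass (adjusted p = 0.127 by the same exact test). The strongest of these were the regions near scm-1 (rank 273), sago-1 (489), an Argonaute gene, ins-32 (515) and srh-52 (576), and a region on IV at rank 558.

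Genes of other non-coding classes were few. An snRNA gene lay within 500 bp of 3 regions (0.809%), all in the ins-13 group beside sls-2.2 and sls-2.3, against 9 weaker ones (Fisher's exact test, adjusted p = 0.155). A miRNA gene lay near 4: mir-52 near the region of Y37A1B.7 (rank 1288), mir-60 near that of set-4 (rank 1711), mir-356a and mir-356b near that of cuc-1 (rank 1326), and mir-8209 near that of jph-1 (rank 683). These names were given because the counts are small, after their values were seen. The regions of mir-52 and mir-356a rested on replicate 1, with ranks of 89 and 748 there and 20987 and 17687 in replicate 2. The mir-60 region had the opposite pattern, with ranks of 9507 and 383, and that of mir-8209 had ranks of 2771 and 1246. A lincRNA gene lay near 7 regions, a piRNA gene near 31 (8.36%, weaker 11.1%; Fisher's exact test, adjusted p = 0.239), a snoRNA gene near 4 and a tRNA gene near 1.

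Along the chromosomes the regions were set against all autosomal sequence that met the position rule. Of the 371, 70 were on I, 71 on II, 70 on III, 67 on IV and 93 on V. IV held 0.698 times its share of that sequence (exact binomial test, adjusted p = 0.0023), I 1.30 times and III 1.31 times (exact binomial test, adjusted p = 0.0370 for each), while II (1.04) and V (0.939) did not pass. These calls did not hold in each replicate: with the 2000 strongest regions of replicate 1 alone, IV was at 0.830 (exact test, adjusted p = 0.234), I at 1.12 and III at 1.01. With replicate 2 alone III was at 0.972, while I (1.34) and IV (0.755) passed (exact binomial test, adjusted p = 0.0283 for each).

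The central part of each autosome, between 1/3 and 2/3 of its length, where gene density is high and repeats are fewer, held 167 regions (45.01%, interval 39.9 to 50.2) for 30.4% of the sequence that met the rule (exact binomial test, p = 3.2e-09). The weaker regions were at 36.9% there. The share of the 371 was above that of the sequence on every autosome, from 35.7% against 29.8% on I to 57.1% against 33.8% on III. On I the weaker regions had a higher share, 39.8%, than the 371.

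Most regions stood alone. Chaining summits at most 1000 bp apart gave 360 groups, of which 350 held 1 region, 9 held 2 and 1 held 3, and 3 neighbouring pairs overlapped, so their windows share sequence. The 371 regions lay in 328 gaps between coding genes, and 37 gaps held 2 or more. Counted once per region, the median gap length was 7105 bp (weaker 7078 bp).

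Gaps with 3 regions were found at 6 places. The gap between C17C3.24 and ins-13, 2726 bp long, held ranks 23, 1136 and 1993. That between C07F11.2 and tol-1, the worm's Toll receptor gene, held ranks 148, 224 and 242 over 20289 bp. The gap between snt-1, the synaptotagmin gene, and egl-27, a chromatin gene of the MTA family that acts in cell migration, held ranks 165, 363 and 925. The others were between Y48G1BL.8 and Y48G1BM.10 (204, 286 and 1601), between oatr-1 and let-756, a fibroblast growth factor gene (269, 1400 and 1442), and between glr-4 and cki-1, the CDK inhibitor gene that holds larval cells out of the cycle (309, 1028 and 1884).

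The cki-1 gap shows how unevenly the replicates saw such a group. Its strongest region, 3363 bp upstream of cki-1, had a signal of 42.6 and ranks 1287 and 338. The region 8035 bp upstream, with TGATNNAT and TAATTA, had ranks 1984 and 5744. The region 2454 bp upstream had rank 849 in replicate 1 and no match in replicate 2.

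Each region was assigned to the coding gene whose 5′ end was nearest, up to 5000 bp away, which names a neighbour and is no sign that it is regulated. In this way 309 regions named 289 of 19973 coding genes, 1.45%. The genes of the known LIN-39 pathways were then counted in lists, which were chosen with results of these data known and are given as counts without a test. A list does not hold every gene of its kind.

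Of 11 Hox genes and cofactors, 1 (9.09%) had a region, mab-5. Its region 3993 bp upstream, at III:7787292-7787601, had a signal of 39.6 and ranks of 341 and 4668 in replicates 1 and 2. A further one, 5870 bp upstream at III:7789169-7789478, is the one shown above with both words, at a signal of 35.002 and ranks of 1480 and 1106. Neither is on the optimal list. The region between ceh-13 and lgc-12 had a signal of 53.2 and ranks of 75 and 933, and lay 2080 bp upstream of lgc-12, a ligand-gated ion channel gene, to which the distance assigned it.

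Of 33 listed genes of the Wnt pathway and of Q neuroblast migration, 5 (15.2%) had a region. The list does not hold sfrp-1 (rank 88) and pygo-1 (rank 591), which had regions at 4328 and 2272 bp from their 5′ ends. The 5 listed genes were mig-1 (Frizzled; rank 109, replicate ranks 103 and 120), pop-1 (TCF; rank 120, with rank 74 in replicate 1 and just beyond 2000 in replicate 2), cwn-2 (a Wnt; rank 302, replicate ranks 1079 and 3775), wrm-1 (a beta-catenin) and mom-2 (a Wnt). The wrm-1 gene had regions at 1109 and 2032 bp upstream, with ranks 601 and 1866; the first had ranks 288 and 10026 in the replicates and the second 8935 and 1036. The mom-2 region (rank 1284) had replicate ranks 549 and 19825. GAGAGA was at the regions of mig-1, pop-1 and cwn-2. The region of rank 181 lay beside lin-17, another Frizzled gene, but its nearest 5′ end was that of F32B5.1.

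Of 36 vulval development genes, 2 (5.56%) had a region, both below the optimal list. They were lin-31, a forkhead gene (rank 717, replicate ranks 3438 and 1134), and lin-29, a zinc finger gene of the last larval molt (rank 1117, replicate ranks 1095 and 17106). With a limit of 10000 bp they were joined by lag-2, the Notch ligand gene, 5726 bp from the region of rank 176 (signal 49.98, replicate ranks 137 and 829). Of 32 ventral cord motor neuron genes, 2 (6.25%) had one: egl-46, a zinc finger gene (rank 716, replicate ranks 1937 and 566, with TGATNNAT and TGACAG), and cfi-1, an ARID factor gene (rank 826, replicate ranks 820 and 8545).

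Of 24 muscle and M lineage genes, 2 had a region. They were pat-2, an alpha integrin gene (rank 557, replicate ranks 5963 and 580), and unc-120, the SRF-type factor gene (rank 695, replicate ranks 8093 and 723). Both were carried by replicate 2. The cell cycle and death list had cki-1 alone of 18, and the epidermis and seam list had egl-18 alone of the 18 genes found in the models out of 19, a GATA factor gene (rank 1581).

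Of the 63 ceh homeobox genes, 4 (6.35%) had a region. They were ceh-48, with 2 regions that overlap (ranks 451 and 913), ceh-23 (992), ceh-58 (1182) and ceh-27 (1704). Of 18 T-box genes, 2 had one, tbx-40 (730) and tbx-33 (862). The neuropeptide list had 3 of 140 (2.14%), ins-13, nlp-33 (410) and ins-32, and the list of ligand-gated channels 2 of 101, lgc-12 and acr-15 (759). The channel list does not hold every channel gene, and unc-63, with a region at rank 478, was not on it.

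The share of all coding genes with a region was 1.45%, and the gene families stood on both sides of it. That base includes genes with no distal intergenic candidate at any rank. The lists also differed in how many genes had a weaker region. These were 12 of 33 in the Wnt list, 12 of 36 vulval and 12 of 32 motor neuron genes. They were 63 of 269 nuclear hormone receptors, 255 of 1353 chemoreceptors, 10 of 78 ribosomal protein genes and 0 of 50 histone genes. The part of the position rule in the shares was not tested. Nuclear hormone receptors had 4 of 269 (1.49%), nhr-20, nhr-269, nhr-175 and nhr-21. Chemoreceptors had 14 of 1353 (1.03%), led by srsx-9 at rank 264 and srh-52. F-box genes had 2 of 321 (0.623%), fbxa-167 and fbxb-81, and cuticle collagens 1 of 156 (0.641%), col-61. C-type lectins had 1 of 237 (0.422%), clec-164. The two-pore potassium channels had 1 of 44 (2.27%), twk-12, the hlh genes 1 of 25 (4%), hlh-30, the TFEB-type factor gene, and the heat shock genes 1 of 20 (5%), hsp-16.1. None of the 78 ribosomal protein genes and 50 histone genes listed had a region. The same held for the 16 intestine and pharynx genes, 16 genes of microRNA processing and chromatin and 8 heterochronic genes on those lists. These zeros hold for the listed genes only. The lin-29 gene, whose region is given above, was counted with the vulval genes, and chd-7, the chromatin remodeller gene (rank 77), was on no list.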

How the data were processed

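The authors deposited narrowPeak tables with a signal value for each region; its reference, the aligner, the peak caller and the depth are not given in any source used here. Per the file headers and accompanying text, candidate lists were derived from each replicate's alignments and from both together, with a further file whose kind is not stated. Regions were 310 bp wide in the joint list, 330 bp in replicate 1 and 300 bp in replicate 2, and the signal served for ranking within a list only. Coordinates are 1-based on ce11. Genes were taken from the WBcel235 annotation of Ensembl (release 115), with 19973 that code for protein. Words were sought up to 100 bp to each side of the summit, on either strand. Shares were compared by two-sided Fisher's exact tests, flanks by exact McNemar tests and chromosomes by exact binomial tests, with Benjamini-Hochberg adjustment within each family at 0.05. A p measures regions of 1 joint list, not animals, and neighbouring regions share sequence. Intervals cover the counting of regions only. Named genes were those at the 20 strongest regions, up to 5 per gene list, the gaps with most regions (3 were asked for and 6 tied) and the 5 strongest for each word or non-coding class that passed; others are named where a count is small, a replicate pair stands apart or a neighbour is a Hox, Wnt or Notch pathway gene, chosen after their values were seen. The members, words and lists were chosen with earlier results of these data known. The functions were tested on simulated data (Python 3.11.15; SciPy 1.17.1; NumPy 2.4.6).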

Additional observations from a re-analysis of the deposited data

How the results depend on the processing

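Over 473 alternative values of 61 results, the GAGAGA difference from the weaker regions kept its call throughout, between 10.2 percentage points at 35% to 45% GC (added after seeing the data) and 31.2 with the limit at rank 1000, and so did the central part of the autosomes, between 9.87 and 16.8. With that limit 198 regions remained, chromosome III was at 1.37 times its share and did not pass, and TAATTA turned from no difference to -5.34 percentage points. The optimal list alone left 65 regions. TGATNNAT against the weaker regions did not pass at 5.78 percentage points (promoter window of 2000 bp), 4.07 (words within 50 bp), 2.69 (within 150 bp) and 4.78 (summits in no gene of any type, added after seeing the data). The ncRNA difference was 2.56 at 35% to 45% GC, also added, and did not pass. Leaving out 1 replicate, so that the other one's list was used, gave 2.66 to 7.94 for TGATNNAT, -4.11 to -5.94 for pseudogenes, and 1.12 to 1.34, 0.972 to 1.01 and 0.755 to 0.830 times the expected share for chromosomes I, III and IV, with III below 1 without replicate 1. Their causes were not tested. Of differences that did not pass in the first place, 22 values passed in the same direction under some alternative, beside the reversed TAATTA. No paired analysis was possible because there is 1 group. Depth is unknown, and 2 replicates do not give an error for a single region.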

Other observations

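When all words of 8 bases were counted around the summits, AGACGCAG stood apart from the GA repeats. It was within 100 bp of 32 of the 371 summits (8.63%), against 94 of the 4929 weaker regions (1.91%), 9.04% of the promoter-proximal and 5.09% of the intronic regions of the same ranks. The word was picked from these counts, so no test is given. Its share was 20.2% at ranks 1 to 500 and 5.32%, 4.82% and 2.22% over the next steps of 500 ranks. It was at 18 of the 89 regions among the 2000 strongest of both replicates (20.2%) and at 2 of the 74 that were so in neither (2.70%). The rpy-1, hif-1 and din-1 windows carry it beside GAGAGA. AGAGAGAG was at 10.8% of the regions and 2.33% of the weaker ones, and AGAAGAAG at 11.6% and 3.92%, also picked from the counts.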
